A study of Mus musculus with 8 samples.

Results

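The genes described here are those of the mouse mitochondrial genome, chosen by their symbol, which starts with mt-. There were 37 of them among the 52661 genes in the tables: 13 coding genes, 2 rRNA genes and 22 tRNA genes. They were measured by RNA sequencing in intraepithelial lymphocytes, the leukocytes that lie among the epithelial cells of the gut lining, taken from C57BL/6 mice and sorted for the pan-leukocyte protein CD45. All 8 cell samples spent 24 h at 37 C in RPMI medium with 10% serum. In 4 of them the medium held osteopontin, a secreted phosphoprotein that binds integrins and CD44, at 2 µg/ml, and the 4 called null received none. The libraries of each group are named 1, 2, A and B, and the series asks how the profile of these cells differs between the groups. Where the cells of each library came from is not stated beyond strain and sort, so the p-values measure a spread between libraries that may be technical.

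Mitochondria keep a small circular genome that is transcribed from both strands into long RNAs. On the heavy-strand transcript the tRNAs lie between the rRNAs and most of the mRNAs, and excision of the tRNAs by RNase P (which contains Trmt10c) and Elac2 releases the others. The coding genes specify core subunits of respiratory complexes I, III and IV and of the ATP synthase, also called complex V, while all other subunits come from the nucleus. Lymphocytes use this chain for ATP and for the metabolic switches that go with activation. In bulk libraries such as these, fewer cells of a kind and less RNA per cell cannot be told apart.

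The members lie end to end on chrM, and the deposited transcripts of all 37 had the identifier and length of GENCODE release M21, whose build is GRCm38. Of the coding genes, 12 lie on the plus strand of that reference and are read from the heavy strand, and mt-Nd6 lies on the minus strand. The rRNA and tRNA genes take up the spaces, with 14 tRNA genes read in the same direction as the 12 and 8 in the other. Neighbours overlap in places, and reads from shared bases cannot be assigned with certainty to either gene. The longest overlap, 43 bases at chrM:7927-7969 on the plus strand, joins mt-Atp8 and mt-Atp6. It is shown because both genes read the same bases in different frames, and the start codon of mt-Atp6 is in capitals.
mt-Atp8 and mt-Atp6 overlap: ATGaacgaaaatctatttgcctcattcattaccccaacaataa
The annotated mt-Nd4l and mt-Nd4 share 7 bases in the same manner, and mt-Nd5 and mt-Nd6 share 14 bases on opposite strands. The annotated lengths of mt-Nd4 (1378 bases), mt-Cytb (1144) and mt-Co3 (784) leave a single T beyond the last whole codon, the known cases in which polyadenylation completes the stop codon.

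The nuclear genome holds a copied stretch of this sequence. In GENCODE M21, 7 pseudogenes at chr1:24611535-24616197 matched part or nearly all of 7 coding genes. All are on the minus strand and matched at 99% identity or more over at least 200 bases. A read from a pseudogene thus cannot always be told from a read of its mitochondrial gene. The pair below is shown because Gm28661 equals mt-Co2 in 681 of 681 aligned bases and lacks only the last 3 of the mitochondrial gene, given in capitals. The first line is chrM:7637-7696 on the plus strand and the second is chr1:24614885-24614941 on the minus strand.
mt-Co2: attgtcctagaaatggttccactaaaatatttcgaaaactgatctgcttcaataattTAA
Gm28661: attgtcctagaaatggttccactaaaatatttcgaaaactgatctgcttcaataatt
The other pair that bears on a result is mt-Nd3 and Gm28438, which agreed in 344 of 345 aligned bases. The difference was T3C, counted from 1 at the 5′ end of mt-Nd3 with the mitochondrial base first, and that base is in capitals in the first 120 bases of the gene, chrM:9459-9578 on the plus strand (the gene ends at 9806).
mt-Nd3: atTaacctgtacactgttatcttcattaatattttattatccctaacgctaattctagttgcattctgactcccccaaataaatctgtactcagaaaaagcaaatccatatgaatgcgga
All aligned bases after it are the same in both. Gm10925 matched 678 of the 681 bases of mt-Atp6, Gm28437 matched 783 of the 784 of mt-Co3 and Gm10222 matched 294 of the 297 of mt-Nd4l, all without a mismatch. Gm28439 matched 876 of the 1378 bases of mt-Nd4 without a mismatch, and Gm29216 matched 482 of 483 bases at the end of mt-Co1, with A1066T as the difference.

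The libraries held between 49108969 and 71399847 estimated reads. The 13 markers of T cells and intraepithelial lymphocytes were all detected, with a summed level of 7041 to 7445 CPM (a gene's reads scaled to 1 fixed library total after TMM) with osteopontin and 6744 to 7256 CPM without. Markers of other cells moved with single libraries: the 10 fibroblast markers reached a sum of 331.9 CPM in null 1 and 184.3 CPM in null A, against 7.63 to 28.8 CPM in the other 6. The 8 endothelial markers summed to between 155.4 and 159.6 CPM in osteopontin library B and null libraries 2 and B and to at most 97.9 CPM elsewhere, and the 10 enterocyte markers were highest in osteopontin B (110.2 CPM) and null B (98.3 CPM), against at most 61.6 CPM elsewhere. B cell markers summed to 333.2 CPM in osteopontin B and to 590.8 to 942.2 CPM in the other 7, macrophage and dendritic cell markers to 77.5 and 84.2 CPM in the B libraries and 101.9 to 163.1 CPM in the others, and red cell markers to at most 1.98 CPM. Alas2 was the only marker at or below 3 reads in every library. The 9 induced stress and immediate-early genes summed to 223.7, 193.7 and 191.6 CPM in osteopontin libraries 1, 2 and A, to 354.5 CPM in osteopontin B and to 337.5 to 376.8 CPM in the null libraries. The part of any of these in the results below was not tested.

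The transcript classes took very unequal parts of the mitochondrial reads. The coding genes held 79.5% to 95.4% of them, and the rRNA genes held 6.76%, 6.51%, 5.87% and 20.5% with osteopontin (libraries in the order 1, 2, A and B, as in every such series of values here) and 5.24%, 4.80%, 4.64% and 8.19% without. The rRNA share was thus highest in library B of each group. There were 13.8, 14.4, 16.04 and 3.88 coding reads per rRNA read with osteopontin and 18.1, 19.9, 20.6 and 11.2 without. Over all 8 libraries the groups overlapped, since null B lay below osteopontin 1, 2 and A. Among the libraries named 1, 2 and A, all 3 osteopontin values were below all 3 null values. That subset was taken after the B libraries had been seen to stand apart. Among the same libraries 6.23% of the genes tested over all 8 were separated in the lower direction. Within the coding reads, nuclear copies included, complex IV genes held 49.6% to 53.8%, complex I genes 24.8% to 29.0%, complex V genes 10.9% to 12.2% and the complex III gene mt-Cytb 8.72% to 10.3%. For each of the 4 complexes the shares of the groups overlapped.

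**Figure D1:**
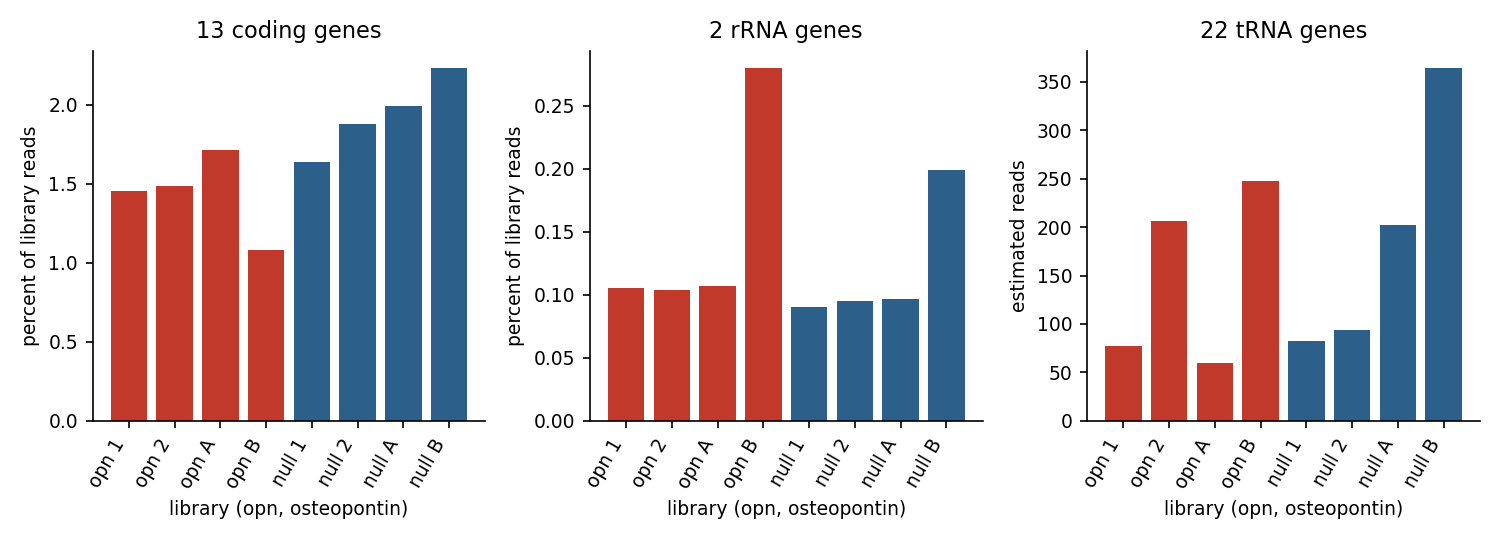
Bars give the percent of each library's reads on the 13 coding genes (left) and the 2 rRNA genes (middle), and the estimated reads on the 22 tRNA genes (right), 1 bar per library, red for osteopontin and blue for null. The rRNA share stood at 0.280% in osteopontin B and 0.199% in null B and between 0.0907% and 0.107% in the other 6 libraries.

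Levels of different genes were compared per length with TPM, the deposited abundance corrected for effective length. In the null libraries mt-Co2 and mt-Co1, the catalytic core of cytochrome oxidase, stood highest at 6350 ± 633.7 and 5954 ± 590.3 TPM (SD, n = 4, as for all means here). The ATP synthase genes mt-Atp6 (5739 ± 731.1 TPM) and mt-Atp8 (5485 ± 1161) and the third oxidase gene mt-Co3 (5123 ± 403.6) followed. Neighbours among these 5 did not keep their order in every library, the most regular pair being mt-Co2 above mt-Co1 in 7 of 8. The exception was null B, at 6072 TPM for mt-Co2 and 6634 TPM for mt-Co1. There the nuclear copy of mt-Co2 received 33.4% of the joint reads and that of mt-Co1 5.04%, which these levels leave out.

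A step separated them from the rest. The mt-Co3 level exceeded that of mt-Cytb (3040 ± 497.7 TPM), the core of complex III, in 8 of 8 libraries, and by 1.77-fold on the means of all 8. Then came the complex I genes mt-Nd4l (2401 ± 326.9 TPM), mt-Nd1 (2272 ± 769.7), mt-Nd4 (2020 ± 392.4), mt-Nd2 (1642 ± 550.4) and mt-Nd5 (995.1 ± 125.2). The order was the same in 8 of 8 libraries from mt-Nd4 to mt-Nd2 and from mt-Nd2 to mt-Nd5, whereas mt-Nd4l lay above mt-Nd1 in 4 of 8.

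On the means of the null libraries the lowest levels included the rRNAs, but this was not so in every library. In osteopontin B mt-Rnr1 (1995 TPM) and mt-Rnr2 (1907 TPM) lay above mt-Cytb (1726 TPM) and the complex I genes. In null B they stood at 1167 and 1418 TPM, above mt-Nd5 (1118 TPM). In the null libraries mt-Rnr2, the large-subunit rRNA, stood at 887.0 ± 355.1 TPM, mt-Nd3 at 761.4 ± 257.9 TPM and mt-Rnr1, the small-subunit rRNA, at 641.0 ± 351.1 TPM, and mt-Rnr2 lay above mt-Nd3 in 4 of 8 libraries and mt-Nd3 above mt-Rnr1 in 5 of 8. These levels leave out reads assigned to nuclear copies, with which the null mean of mt-Nd3 would be 131.0 in place of 86.8 CPM, so its rank is uncertain. The only coding gene of the other strand, mt-Nd6, was last in all 8 libraries, with a null mean of 74.1 ± 20.5 TPM. On the means of all 8 mt-Rnr1 exceeded it 10.9-fold, a value raised by the B libraries. In osteopontin B and null B mt-Rnr1 was highest and mt-Nd6 lowest, at 42.7 and 46.5 TPM. In the libraries not named B mt-Rnr1 stood at 446.5 to 520.0 TPM and mt-Nd6 at 57.9 to 95.4 TPM. How ribosomal RNA was treated in library preparation is not stated beyond a stranded protocol, so the rRNA levels describe these libraries.

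**Figure D2:**
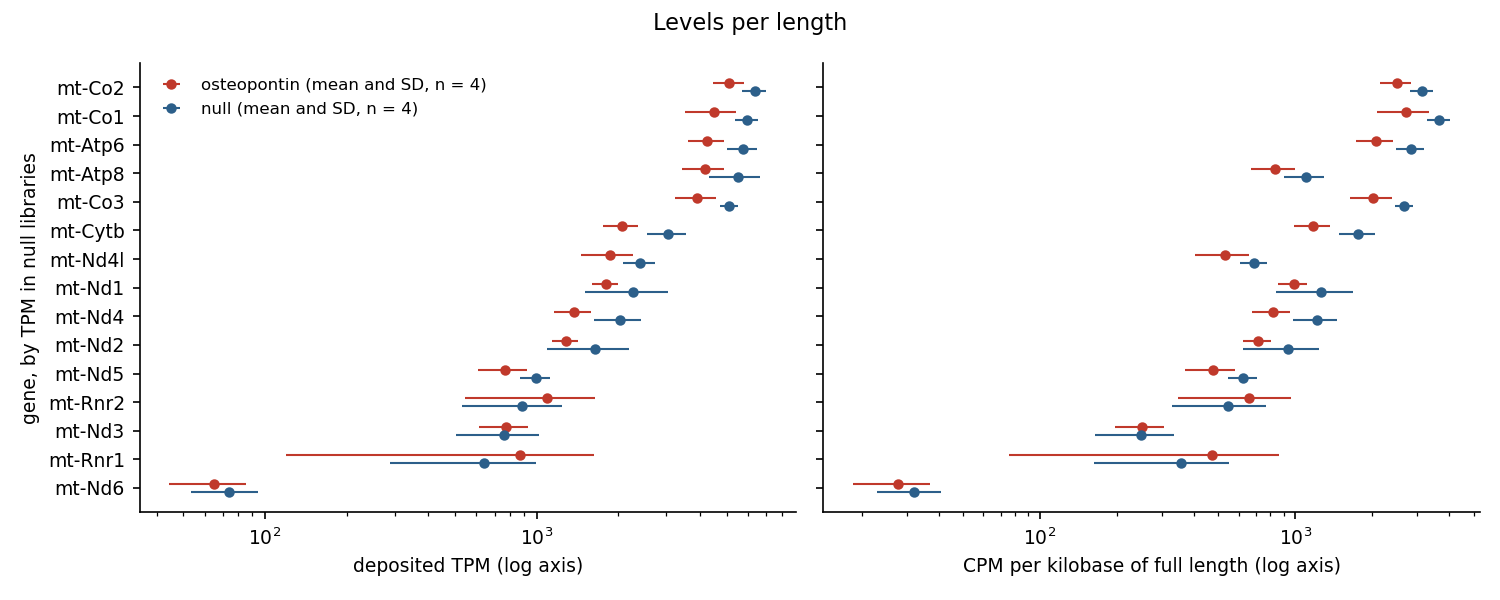
Points give group means and bars the SD over 4 libraries, as deposited TPM (left) and as CPM per kilobase of annotated length (right), both on log axes, with genes ordered by TPM in the null libraries. mt-Atp8 has rank 4 by TPM and rank 8 by CPM per kilobase, while mt-Nd6 is last by both.

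The rank of the short genes depended on the length used. mt-Atp8 is 204 bases long but had an effective length of 55.2 to 61.1 bases in the deposited tables, and mt-Nd4l, at 297 bases, had 114 to 125. With CPM divided by the full length in kilobases, mt-Atp8 went from rank 4 to rank 8 (1105 ± 197.5 CPM per kilobase in null libraries), mt-Nd4l from rank 7 to rank 10, and mt-Co1 (3664 ± 376.9) came before mt-Co2 (3147 ± 321.6).

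Between osteopontin and null libraries no member passed the test. With edgeR's quasi-likelihood test 19 of the 37 members had enough reads to be tested, 13 coding, 2 rRNA and 4 tRNA genes, and 0 were called at an adjusted p under 0.05, against 0% of all 18631 tested genes. The adjusted p was 0.9999 by edgeR for each coding and rRNA gene. On the fitted values 12 of the 13 coding genes were lower with osteopontin, with a median log2 fold change of -0.40, while 49.9% of all tested genes were lower and their median was 0.0004. The unadjusted p was under 0.05 and the fit lower for 7 coding genes, with 0 higher, and for 2.08% of all tested genes (3.93% in either direction). All 4 osteopontin libraries lay below all 4 null libraries for 3 coding genes, mt-Cytb, mt-Co3 and mt-Atp6, and for 1.58% of all tested genes. The coding genes are cut from shared long transcripts, so these counts are not counts of independent genes.

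The differences were smaller without the libraries named B. With both left out the median of the coding genes was -0.23, 12 of 13 were still fitted lower, 6 had an unadjusted p under 0.05 where 2.87% of all tested genes did with a lower fit, and mt-Cytb, mt-Co3 and mt-Atp6 did not overlap, as was so in this direction for 6.23% of the genes tested over all 8 libraries. In the fit without osteopontin B the median was -0.29, without null B -0.36, and without null libraries 1 and A, which carried the fibroblast transcripts, -0.51 with 6 coding genes at an unadjusted p under 0.05 and a lower fit, against 1.41% of all genes tested there.

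**Figure D3:**
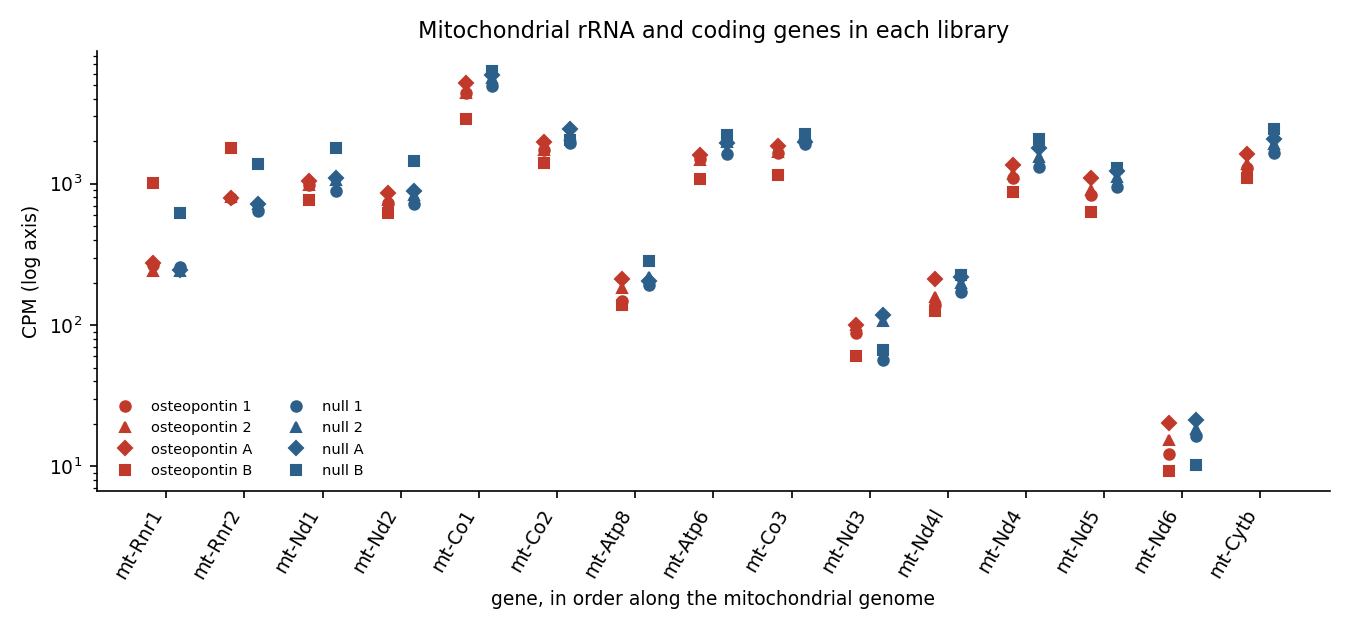
Each symbol is the level of a gene in 1 library, in CPM on a log axis, red for osteopontin and blue for null, with the shape giving the library name, for the 2 rRNA and 13 coding genes in their order along the mitochondrial genome. Squares, the libraries named B, stand at 1015 and 616.3 CPM for mt-Rnr1, above the other 6 libraries at 240.4 to 275.4 CPM.

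Complex I passes electrons from NADH to ubiquinone, and its 7 mitochondrial genes differed in how far the groups lay apart. mt-Nd4 (chrM:10167-11544), a subunit of the proton-pumping arm, stood at 1101, 1173, 1347 and 876.7 CPM with osteopontin and at 1317, 1546, 1776 and 2083 CPM without. The groups touched only where osteopontin A exceeded null 1. The means were 1124 ± 194.8 and 1680 ± 327.6 CPM, and the log2 fold change was -0.58 (SE 0.18, 95% interval -0.998 to -0.16). It was -0.36 without both B libraries.

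mt-Nd5 (chrM:11742-13565), the longest subunit of that arm, stood at 834.9, 905.3, 1095 and 633.6 CPM with osteopontin and 946.2, 1116, 1229 and 1284 CPM without. Osteopontin A was again the library inside the null range. The fold change was -0.40 (SE 0.17, -0.81 to 0.01), or -0.22 without both B libraries. mt-Nd4l (chrM:9877-10173), whose reading frame runs into that of mt-Nd4, stood at 158.1 ± 37.6 and 204.8 ± 24.6 CPM, that is -0.37 (-0.76 to 0.01) as a log2 fold change and -0.23 without both B libraries.

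The 2 coding genes nearest to the rRNAs, mt-Nd1 (chrM:2751-3707) and mt-Nd2 (chrM:3914-4951), drew together once library B was set aside. mt-Nd1, which lines the quinone channel, stood at 981.2, 983.7, 1039 and 767.2 CPM with osteopontin and at 887.0, 1057, 1092 and 1802 CPM without. mt-Nd2, another membrane-arm subunit, stood at 728.8, 764.2, 854.2 and 623.2 CPM and at 714.7, 838.2, 881.6 and 1439 CPM. For both genes null B was the highest and osteopontin B the lowest of all 8 libraries, and the other 6 were interleaved. Their fold changes of -0.36 (-0.94 to 0.22) and -0.38 (-0.95 to 0.19) were -0.02 (-0.18 to 0.15) and -0.05 (-0.23 to 0.12) without both B libraries, and -0.10 and -0.13 without null B alone. Without null libraries 1 and A they were -0.60 and -0.62.

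The last 2 genes of complex I were the least abundant. mt-Nd6 (chrM:13552-14070, minus strand) stood at 12.3, 15.4, 20.5 and 9.29 CPM with osteopontin and 16.5, 18.6, 21.2 and 10.2 CPM without. Library B was the lowest in each group and the groups overlapped (log2 fold change -0.21, -0.76 to 0.34). That value ranged from -0.43 without osteopontin A to -0.05 without osteopontin B, was -0.07 without null A and -0.38 without null B, and came to -0.0035 without null 1 and A. The protocol was stranded but the strand setting of the quantification is not given in the sources used here, so reads of mt-Nd6 cannot be told apart from those of the opposite strand.

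mt-Nd3, a membrane subunit near the quinone site, was the one coding gene that was not fitted lower. It stood at 87.7, 100.5, 100.5 and 60.3 CPM with osteopontin and at 56.5, 106.2, 117.8 and 66.7 CPM without, a log2 fold change of 0.01 (-0.69 to 0.71). Here null libraries 1 and B were low, whereas for the neighbouring mt-Nd4l null B was the highest library. This gene was also the one for which the nuclear copy held the highest share of the joint reads in any library.

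The split between mt-Nd3 and Gm28438 varied from library to library. Of the reads assigned to either, the copy received 21.2%, 18.2% and 7.47% in osteopontin libraries 1, 2 and A, 0 reads in osteopontin B, and 57.4%, 30.3%, 0.0311% and 45.1% without osteopontin. With both counted together the level was 111.2, 122.9, 108.7 and 60.3 CPM with osteopontin and 132.4, 152.3, 117.9 and 121.5 CPM without. The overlap was then limited to osteopontin 2, which lay above null A and null B. The means were 100.7 ± 27.7 and 131.0 ± 15.5 CPM, and the fold change turned from 0.01 to -0.38 (-0.90 to 0.14). With the copy it was -0.20 without osteopontin B and -0.23 (-0.42 to -0.05) without both B libraries. How the quantification divided these reads was not tested, and the copies were added after the data had been seen.

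**Figure D4:**
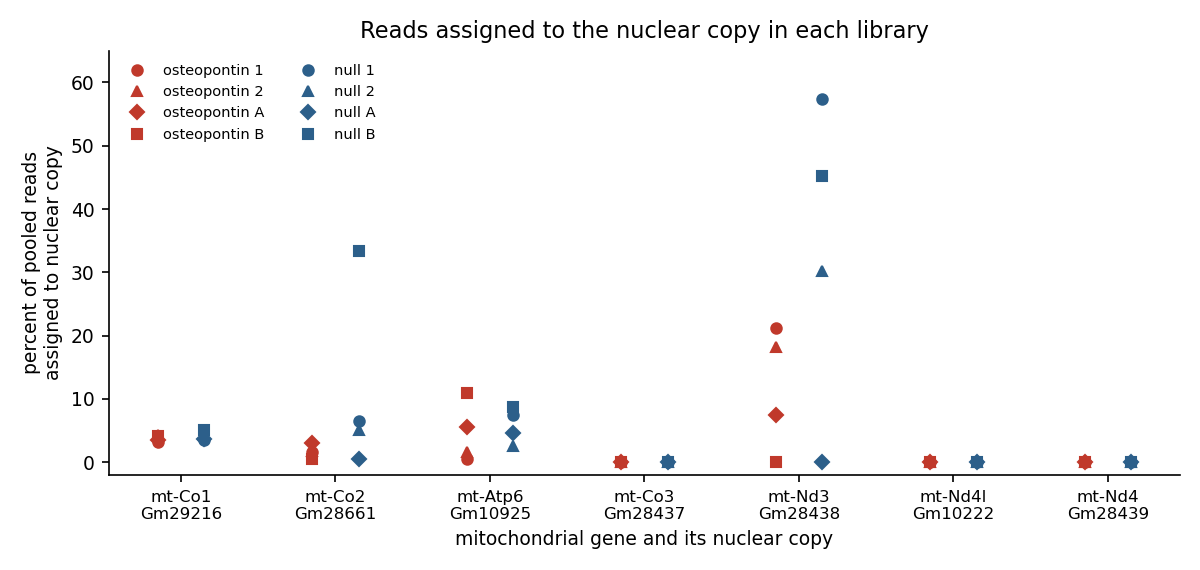
Each symbol gives, for 1 library, the percent of the reads of a mitochondrial gene and its nuclear copy together that were assigned to the copy, red for osteopontin and blue for null. For mt-Nd3 the libraries spread from near 0 to 57.4%, for mt-Co2 null B stands alone at 33.4%, and for mt-Co3, mt-Nd4l and mt-Nd4 every library is near 0.

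The same was seen at mt-Co2 in a single library. Its copy received 1.56%, 1.73%, 2.97% and 0.580% of the joint reads with osteopontin and 6.46%, 5.05%, 0.448% and 33.4% without, the last being 66621 reads in null B. For mt-Atp6 the copy received 0.529% to 11.0% with osteopontin and 2.64% to 8.76% without, and for mt-Co1 the share lay between 3.19% and 5.04% in all 8. The copies Gm10222 and Gm28439 received 0 reads after rounding in every library, and Gm28437 received 41 in null B and 0 elsewhere. Gm28661 and Gm28437, which have no mismatch with their genes over the aligned bases, differed widely in this share, up to 33.4% for the former and up to 0.0284% for the latter.

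Complex III carries electrons on to cytochrome c, and mt-Cytb (chrM:14145-15288) is its only mitochondrial subunit. It stood at 1291, 1382, 1626 and 1098 CPM with osteopontin and at 1658, 1906, 2084 and 2443 CPM without, so that the highest osteopontin library lay just below the lowest null library. The means were 1349 ± 219.3 and 2023 ± 330.4 CPM and the log2 fold change was -0.58 (SE 0.15, -0.92 to -0.24, edgeR unadjusted p = 0.00421). Without both B libraries it was -0.40 (-0.60 to -0.19), the lowest of the coding genes in that fit.

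Complex IV reduces oxygen, with mt-Co1, mt-Co2 and mt-Co3 as its core. mt-Co1 (chrM:5328-6872), which holds the heme and copper centre where oxygen is bound, stood at 4403, 4375, 5135 and 2861 CPM with osteopontin and at 4909, 5572, 5863 and 6296 CPM without. Osteopontin A exceeded null 1, the others were in separate ranges. The means were 4194 ± 955.5 and 5660 ± 582.3 CPM and the fold change -0.43 (-0.86 to -0.004), -0.44 with the copy added and -0.23 without both B libraries.

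mt-Co2 (chrM:7013-7696), which receives electrons from cytochrome c, stood at 1727, 1739, 1985 and 1397 CPM with osteopontin and at 1934, 2207, 2436 and 2035 CPM without. Osteopontin A lay above null 1. The fold change was -0.33 (SE 0.10, -0.55 to -0.11, edgeR unadjusted p = 0.00649). With the reads of Gm28661 added, the levels were 1754, 1770, 2045 and 1406 CPM against 2067, 2324, 2447 and 3056 CPM, the groups no longer overlapped, and the fold change was -0.50 (-0.83 to -0.18). Without both B libraries the fold change was -0.27 for the gene alone and -0.30 (-0.47 to -0.13) with the copy.

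mt-Co3 (chrM:8607-9390), the core subunit that carries no metal, stood at 1644, 1680, 1839 and 1153 CPM with osteopontin and at 1913, 2260, 1986 and 2240 CPM without. The groups did not overlap. The fold change was -0.41 (-0.71 to -0.10, edgeR unadjusted p = 0.0146), and -0.26 without both B libraries.

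Complex V makes ATP from the proton gradient, and both of its mitochondrial genes share 1 mRNA in the cell. mt-Atp6 (chrM:7927-8607), the proton channel subunit, stood at 1493, 1472, 1598 and 1077 CPM with osteopontin and at 1627, 1966, 1927 and 2211 CPM without. The gap between the groups was small, from osteopontin A to null 1. The means were 1410 ± 228.6 and 1933 ± 239.7 CPM and the fold change -0.45 (-0.75 to -0.16, edgeR unadjusted p = 0.00702), -0.48 (-0.72 to -0.23) with the copy added and -0.28 without both B libraries.

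mt-Atp8 (chrM:7766-7969), a short accessory subunit, stood at 147.7, 183.6, 210.9 and 139.3 CPM with osteopontin and at 191.8, 220.5, 206.0 and 283.2 CPM without. Osteopontin A exceeded null 1 and null A. The fold change was -0.40 (-0.78 to -0.02) and -0.19 (-0.45 to 0.07) without both B libraries.

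With the nuclear copies added throughout, all 13 coding genes were fitted lower with osteopontin, with a median of -0.40, 7 had an unadjusted p under 0.05 where 2.07% of all genes tested in that fit did with a lower fit, and 0 were called by edgeR. The osteopontin libraries all lay below the null libraries for 4 genes, mt-Cytb, mt-Co2, mt-Co3 and mt-Atp6, against 1.58% of all genes tested without the copies added. The coding reads with copies made up 1.48%, 1.52%, 1.75% and 1.11% of the osteopontin libraries and 1.69%, 1.93%, 2.02% and 2.39% of the null libraries, so osteopontin A still lay above null 1. Without both B libraries 13 of 13 were again lower, with a median of -0.23.

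**Figure D5:**
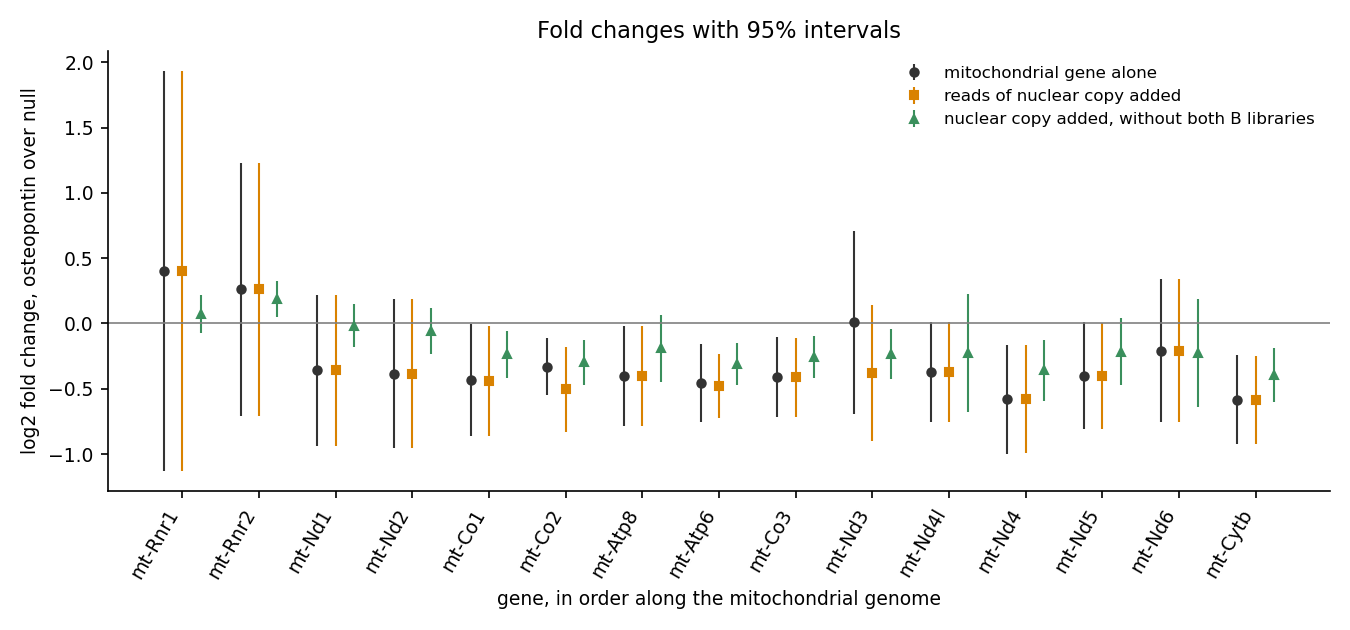
Points give log2 fold changes of osteopontin over null and bars their 95% intervals from edgeR, for the gene alone (black), with the reads of its nuclear copy added (orange) and with copies added and both B libraries left out (green), in genome order. mt-Nd3 moves from 0.01 to -0.38 when its copy is added, and mt-Nd1 and mt-Nd2 come to -0.02 and -0.05 without the B libraries.

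The distance along the heavy-strand transcript went with the fold change only loosely. Over its 12 coding genes the Spearman correlation of gene order with fold change was -0.39, and between -0.54 and -0.27 in the 5 other fits for which it was computed, the former with copies added and both B libraries left out and the latter without osteopontin B, as a description across genes that share libraries and transcripts. In the fit with copies added and without both B libraries the genes next to the rRNAs, mt-Nd1 and mt-Nd2, were nearest to 0. Farthest from it were mt-Nd4 (-0.36) and mt-Cytb (-0.40), both toward the far end. Their neighbours mt-Nd5 (-0.22) and mt-Nd4l (-0.23) were nearer to 0 than the earlier mt-Co2 (-0.30) and mt-Atp6 (-0.31). With copies added and all libraries kept, mt-Nd3 (-0.378) and mt-Nd4l (-0.373) were nearer to 0 than mt-Nd2 (-0.383).

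The 2 rRNA genes differed from the coding genes in how the libraries ranked. mt-Rnr1 (chrM:70-1024) stood at 266.6, 240.4, 275.4 and 1015 CPM with osteopontin and at 257.8, 241.2, 244.1 and 616.3 CPM without. mt-Rnr2 (chrM:1094-2675) stood at 790.5, 799.8, 788.1 and 1775 CPM and at 645.1, 716.8, 720.2 and 1383 CPM. Library B was far above the rest of its group for both rRNAs, while for the coding genes osteopontin B was the lowest library for all 13 except mt-Nd3, where null 1 was lower.

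The fitted fold changes of the rRNAs were 0.40 for mt-Rnr1 (SE 0.63, -1.13 to 1.93) and 0.26 for mt-Rnr2 (SE 0.40, -0.71 to 1.23). They turned to -0.38 and -0.13 without osteopontin B and were 0.07 (-0.07 to 0.21) and 0.19 (0.05 to 0.33) without both B libraries. In a fit with the library name as a block they were 0.23 (-0.09 to 0.56) for mt-Rnr1 and 0.24 (0.13 to 0.34) for mt-Rnr2. The edgeR adjusted p of mt-Rnr2 was 0.645 in that fit, and whether the names mark pairs is not stated. Among libraries 1, 2 and A the 3 osteopontin values of mt-Rnr2 all lay above the 3 null values, in the direction opposite to mt-Cytb, mt-Co3 and mt-Atp6. For mt-Rnr1 these libraries overlapped. The edgeR adjusted p of mt-Rnr2 without both B libraries was 0.736. In the lower direction 6.23% of the genes tested over all 8 libraries were separated among libraries 1, 2 and A. The share in the higher direction was not computed.

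Genes annotated as nuclear rRNA also held the highest shares in the B libraries, 0.00165% of the reads of osteopontin B and 0.00283% of those of null B, against 0.00101% to 0.00123% in the other 6. Osteopontin B alone was highest in transcripts annotated as retained introns (8.28% of its reads, 6.76% to 7.79% in the other 7) and in those annotated as subject to nonsense-mediated decay (3.75%, 2.92% to 3.14% in the other 7). The part of RNA quality or library preparation in the rRNA values was not tested.

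Ratios of 2 members within a library do not depend on the scaling between libraries, and 6 were tested by exact two-sided permutation of the 70 possible arrangements of the libraries. None passed after adjustment over the 6 ratios. The ratio of mt-Nd4 to mt-Nd5, neighbours on the heavy strand, was 1.318, 1.296, 1.229 and 1.384 with osteopontin and 1.391, 1.385, 1.445 and 1.623 without, so the groups lay edge to edge, with an exact p of 0.0286, the smallest these group sizes allow, and an adjusted p of 0.171. The ratio of mt-Rnr2 to mt-Nd1, which lie on either side of mt-Tl1, was 0.806, 0.813, 0.759 and 2.31 with osteopontin and 0.727, 0.678, 0.659 and 0.768 without (exact p = 0.0571, adjusted 0.171). The only overlap there was osteopontin A below null B.

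The ratio of mt-Cytb to mt-Nd1, the last and the first coding gene of the heavy strand, was 1.32, 1.41, 1.57 and 1.43 with osteopontin and 1.87, 1.80, 1.91 and 1.36 without (exact p = 0.114, adjusted 0.229). Null B alone lay among the osteopontin libraries. For mt-Rnr2 to mt-Rnr1 the group means were 2.73 ± 0.682 and 2.67 ± 0.355 (exact p = 1), with the lowest ratio of each group, 1.75 and 2.24, in library B. For mt-Co1 to mt-Cytb they were 3.09 ± 0.341 and 2.82 ± 0.173 (exact p = 0.229, adjusted 0.343). For mt-Nd6 to mt-Nd5, on opposite strands, they were 0.0163 ± 0.00193 and 0.0148 ± 0.00458 (exact p = 0.8, adjusted 0.96), with null B lowest at 0.00797.

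The tRNA genes were almost unmeasured. All 22, of 59 to 75 bases, received 1333 estimated reads over the 8 libraries together, with 77, 206, 60 and 248 in the osteopontin libraries and 82, 94, 202 and 364 in the others. Library B was the highest of each group, as for the rRNAs. No tRNA gene reached a mean of 1 CPM, the highest mean being 0.555 CPM, and a library of this depth gives 3 reads at 0.0420 to 0.0611 CPM. The genes mt-Tf, mt-Tn, mt-Tc, mt-Tk, mt-Tr and mt-Te were at 0 in all 8 libraries, and 11 tRNA genes, these 6 included, never had more than 3 reads.

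Only 4 tRNA genes passed the filter on low counts, and they held 73.4% of the tRNA reads. They are shown with the anticodon in capitals as the DNA of the tRNA strand, because each of them adjoins a gene described above or, for mt-Tp, ends the annotated genes. mt-Tl1 (chrM:2676-2750, plus strand) lies between mt-Rnr2 and mt-Nd1, mt-Tm (chrM:3845-3913, plus) precedes mt-Nd2, mt-Tw (chrM:4950-5016, plus) follows it, and mt-Tp is at chrM:15356-15422 on the minus strand.
mt-Tl1: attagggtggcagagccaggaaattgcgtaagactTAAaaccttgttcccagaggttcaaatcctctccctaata
mt-Tm: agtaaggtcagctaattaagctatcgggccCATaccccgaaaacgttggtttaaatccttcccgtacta
mt-Tw: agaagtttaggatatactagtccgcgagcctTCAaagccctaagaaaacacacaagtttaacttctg
mt-Tp: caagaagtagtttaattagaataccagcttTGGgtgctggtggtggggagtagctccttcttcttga
Their reads were unevenly spread. mt-Tm had 17, 30, 34 and 43 reads with osteopontin and 0, 9, 16 and 116 without, and mt-Tp had 14, 25, 0 and 52 against 52, 1, 23 and 85. Over all 8 libraries mt-Tw had 278 reads, mt-Tm 265, mt-Tp 252 and mt-Tl1 184, and each of the 4 had 0 reads in 1 library and at least 55 in another. The deposited effective lengths of the tRNA genes were 11.3 to 15.3 bases. Whether fragments as short as a tRNA were kept in the libraries is not stated.

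Nuclear genes that serve the mitochondrial genome were compared in the same fit. The 11 transcription genes were split, 6 fitted higher and 5 lower, with a median log2 fold change of 0.03 and 0 called. Tfam, which packages mitochondrial DNA and starts its transcription, stood at 57.4 ± 3.88 CPM with osteopontin against 52.3 ± 4.59, a fold change of 0.13 (-0.07 to 0.34). Mterf1a, which binds within mt-Tl1, stood at 13.7 ± 1.84 and 17.1 ± 1.60 CPM, a fold change of -0.33 (-0.69 to 0.03). These 2 had the smallest p of their list, as do the pairs named for the lists that follow.

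The genes that process and stabilise mitochondrial RNA were evenly split, 10 of 20 fitted lower, with a median of 0.01 and 0 called. Trmt10c, the methyltransferase part of RNase P, stood at 30.2 ± 5.70 CPM with osteopontin and 39.2 ± 9.52 without (-0.38, -0.75 to -0.01). Elac2, which cuts at the other end of the tRNA, stood at 45.5 ± 2.06 and 40.9 ± 4.03 CPM (0.15, -0.07 to 0.38). The groups overlapped for both.

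Genes of tRNA modification had 10 of 16 fitted lower and a median of -0.02, with 0 called. Trmu and Mto1, which modify the wobble base of mitochondrial tRNAs, had fold changes of -0.42 (-0.79 to -0.05) and -0.28 (-0.59 to 0.03). Among the 17 mitochondrial aminoacyl-tRNA synthetases 6 were lower, the median was 0.05 and 0 were called, with Pars2 for proline at -0.41 and Mars2 for methionine at -0.29. Of 18 genes of rRNA modification and translation 11 were lower, the median was -0.04 and 0 were called. Its named members were the elongation factor Tufm (-0.18) and the release factor Mtrf1 (-0.42, -1.10 to 0.25). The osteopontin libraries of Mtrf1, at 3.27 to 4.44 CPM, all lay below the null libraries at 4.56 to 6.61 CPM. Such a separation in that direction was found for 1.58% of all tested genes.

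Of 14 genes of mitochondrial DNA replication and nucleotide supply 11 were fitted higher, with a median of 0.06 and none called. Over all tested genes 9335 of 18631 were fitted higher. Rrm2b, a ribonucleotide reductase subunit that supplies nucleotides to resting cells, stood at 49.2, 54.6, 56.1 and 52.1 CPM with osteopontin and 42.3, 48.4, 44.2 and 45.9 CPM without. Each osteopontin library exceeded each null library, as was so in either direction for 3.47% of all genes (fold change 0.23, 0.03 to 0.43, edgeR adjusted p = 0.9999). Mgme1, an exonuclease of mitochondrial DNA, had 0.27 (-0.16 to 0.71). Of 8 regulators of mitochondrial biogenesis 6 were lower, with a median of -0.06 and 0 called, and the 2 chains of the GA-binding protein, Gabpb1 and Gabpa, had -0.17 and 0.10.

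The nuclear partners of the mitochondrial subunits were less far apart between the groups than the mitochondrial genes. Of 75 nuclear genes for respiratory chain and ATP synthase subunits 51 were fitted lower, with a median of -0.05 and 0 called. A lower fit with an unadjusted p under 0.05 was found for 6 of them and for 2.08% of all tested genes. Atp5j2 of complex V stood at 58.3, 67.3, 56.9 and 61.2 CPM with osteopontin and 73.6, 69.6, 67.5 and 88.6 CPM without (-0.30, -0.51 to -0.08). Cox6b1 of complex IV stood at 45.1, 53.9, 53.8 and 47.9 CPM and 59.7, 61.6, 57.8 and 62.6 CPM (-0.27, -0.46 to -0.07). Both were without overlap, as were 1.58% of all tested genes in that direction. The difference between the nuclear and the mitochondrial genes was not tested.

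The list of 11 nuclear pseudogene copies had 6 tested genes, all fitted lower and 0 called, with a median of -1.28. It includes the copies added to the members above, and the part of the split of shared reads in its values was not tested. Gm28661 stood at 27.4, 30.6, 60.7 and 8.15 CPM with osteopontin and at 133.4, 117.5, 11.0 and 1021 CPM without, a fold change of -3.34 whose interval, -6.77 to 0.09, held 0. Null A lay within the osteopontin range. Gm29216 stood at 162.3 ± 35.2 and 246.2 ± 65.4 CPM (-0.60, -1.17 to -0.03).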

How the data were processed

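Per the submitters' processing notes Salmon was used, with no version. Transcript release and build: not given in the sources used here. Each library has 1 table, deposited by the authors, with estimated counts, TPM and effective lengths for 133618 transcripts. Estimated counts were summed per gene and rounded; deposited TPM served for levels per length. The deposited effective length, a score in bases, is part of the deposited TPM, which also served as an alternative for shares and ratios. As an offset it entered 1 alternative fit. The 8 libraries (49108969 to 71399847 reads) were compared with edgeR 4.0.16 (R 4.3.3; filterByExpr with a minimum count of 10, TMM, robust quasi-likelihood F test, two-sided, Benjamini-Hochberg over 18631 genes, threshold 0.05). The fit was also run on simulated counts with the same dispersion for all genes and no deviating library. The changes planted there were larger than those of the coding genes, so that run does not show whether changes of their size can be found. Fold changes (log2) set osteopontin over null, and the CPM floor covers counting error only. Nuclear copies were found with blastn 2.17.0 (at least 99% identity over 200 bases) between GENCODE M21 transcripts, and the deposited tables name them by clone, so they were matched by gene identifier. Ratios used exact permutation tests (scipy 1.17.1). Alternatives, run with DESeq2 1.42.0 and limma 3.58.1 among others, are given in the closing section. The members and lists were chosen with earlier results of these data known. All coding and rRNA genes are named, tRNA genes in full where their mean reached 1 CPM, and from each list the 2 members with the smallest p. The alternatives that add nuclear copies, and those that leave both B libraries out of shares and ratios, were chosen after seeing the data.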

Additional observations from a re-analysis of the deposited data

Results flagged for a closer look

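Single libraries stood far from the other 3 of their group in 8 of the 50 groups of 4 values examined (gap to the nearest library, as a share of the range, above the 95% limit of Dixon's test), where chance gives about 1 in 20, and all 8 were libraries named B. mt-Rnr1 stood at 1015 CPM in osteopontin B against 240.4 to 275.4 CPM in the other 3, and at 616.3 CPM in null B against 241.2 to 257.8 CPM. mt-Rnr2 stood at 1775 CPM in osteopontin B against 788.1 to 799.8 CPM, and at 1383 CPM in null B against 645.1 to 720.2 CPM. The share of reads on both rRNA genes, which sums the same values, was 0.280% in osteopontin B against 0.104% to 0.107%, and 0.199% in null B against 0.0907% to 0.0968%. The ratio of mt-Nd6 to mt-Nd5 was 0.00797 in null B against 0.0166 to 0.0174. The ratio of mt-Rnr2 to mt-Nd1 was 2.31 in osteopontin B against 0.759 to 0.813.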

How the results depend on the processing

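No member was called under any alternative run, and the smallest adjusted p of a member was 0.0861 (DESeq2, mt-Co2). Over all genes DESeq2 called 21 higher and 59 lower. EdgeR called 0 as reported, but 1 and 48 without both B libraries, 2 and 35 (36 with copies added) without osteopontin B, 3 and 1 with no low-count filter, and at most 1 in each other fit. Between 12 and 13 coding genes were fitted lower throughout, with a median of -0.53 to -0.23. The count of coding genes with a lower fit and an unadjusted p under 0.05 was 7, against 2.08% of all tested genes. It was 4 to 9 when 1 library was left out (4 without null 2), against 1.57% to 3.09% of all genes tested there. With the replicate block 0 members were called, that count was 3, the coding median was -0.41 and the smallest adjusted p was 0.263 (mt-Co2). The 3 genes were mt-Co2, mt-Cytb and mt-Nd4l, against 2.87% of all tested genes. The intervals of mt-Co1, mt-Atp8, mt-Atp6, mt-Co3 and mt-Nd4, which lay below 0 without the block, held 0 with it. After the group mean of each gene was taken off, the log CPM of same-named libraries correlated at 0.0437 to 0.123. These are correlations of deviations within the groups, not of whole profiles. Each osteopontin library correlated best with the null library of its own name. Whether the names mark pairs is not stated. Directions reversed for mt-Rnr1 (-0.38 to 0.86 with 1 library left out), for mt-Rnr2 (-0.13 to 0.58 with 1 left out, -0.0168 without null 1 and A) and for mt-Nd3 (-0.15 to 0.19 with 1 left out, -0.0028 with effective-length offsets, -0.38 with its nuclear copy). The log2 difference between groups reversed for the ratio of mt-Rnr2 to mt-Rnr1 (-0.11 to 0.20 with 1 left out) and for mt-Nd6 to mt-Nd5 (-0.0776 to 0.30 with 1 left out, -0.0294 without both B libraries). The rRNA share, a log2 ratio of group means of 0.31, was -0.19 without osteopontin B, and that of tRNA, -0.15, was 0.11 without osteopontin 1 or A and 0.42 without null B. Apart from the copy, whose reads were moved by construction, the causes were not tested. The tRNA genes, with at most 0.555 CPM on average, were too low for values of single genes.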
